A study of Mus musculus with 12 samples.

Results

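The LPS response of MH-S clones with high IL-4Ra activity was measured in 3 clones, numbered 69, 73 and 83, on 6 of the study's 12 arrays, and is described here over 27296 genes. MH-S is an immortalised mouse alveolar macrophage line, and each clone gave 1 unstimulated array and 1 array after 16 h with 0.2 µg/ml of lipopolysaccharide (LPS), prepared from Salmonella Minnesota R595. The other 6 arrays came from clones 7, 29 and 75, which the labels call low in IL-4Ra activity and which were treated in the same way. IL-4Ra is the alpha chain of the interleukin-4 (IL-4) receptor, and the sources used here do not say what its activity refers to or how it was measured. The members were all genes of the array's main category that carry a symbol, with each LPS array set against the unstimulated array of its own clone. All 6 clones were derived from a single line, so p-values measure the spread between clones and not between animals. That spread was pooled over high and low clones, and with 1 array per clone and condition it includes the noise of single arrays.

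LPS is the main surface molecule of Gram-negative bacteria, and macrophages sense it through CD14 and the TLR4 and MD-2 receptor complex. One arm of TLR4 signalling, through MyD88, activates NF-kB and AP-1 and switches on cytokines such as IL-1 and TNF. A second arm, through TRIF, activates IRF3 and interferon-beta, which acts back on the cells to raise interferon-stimulated genes. IL-4 acts on macrophages through IL-4Ra and STAT6 and drives a set of genes that differs from the LPS set.

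Values are normalised log2 signals, on which 1 unit is a 2-fold change, and a change is LPS minus unstimulated within a clone. Array medians lay between 4.36 and 4.40 on the 6 arrays, and intron control probes, which should see little mature RNA, had medians from 4.56 to 4.77 with 95th percentiles from 7.10 to 7.27. Of 7 macrophage markers, 6 lay above that 95th percentile without LPS, among them the surface protein gene Cd68 at 12.61 ± 0.06, the growth factor receptor gene Csf1r at 11.17 ± 0.18 and Adgre1 at 10.10 ± 0.40 (SD, n = 3), while Itgam lay at 5.86 ± 0.62. Of 8 alveolar macrophage markers only Itgax did, at 7.75 ± 0.87, and Pparg at 6.29 ± 0.59 and Fabp4 at 5.94 ± 0.12 lay between the intron control medians and that percentile. Siglecf at 3.80 ± 0.05, Marco at 3.95 ± 0.13, Car4 at 3.38 ± 0.06, Chil3 at 3.02 ± 0.35 and Ear1 at 3.14 ± 0.46 lay under the intron control medians. Of the markers of other cells, 1 of 11 for monocytes and dendritic cells (Cd209a), 0 of 14 for neutrophils and mast cells, 0 of 12 for lymphocytes and 1 of 12 for fibroblasts and epithelium (Col1a1) lay above the 95th percentile.

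After 16 h of LPS, 831 genes rose and 989 fell in the high clones, which is 3.04% and 3.62% of the genes tested (limma with the clone as a block, Benjamini-Hochberg adjusted p under 0.05). More rises than falls were large, since 220 genes (0.806%) rose and 121 genes (0.443%) fell by at least 1 on the log2 scale. The 6 largest rises were those of Il1a, Il1b, Nos2, Cybb, Il6 and the predicted gene Gm14275, the last at 4.99 ± 0.23 (adjusted p = 2.21e-05). Without LPS the means of Il1a (3.94), Nos2 (4.50), Il6 (3.19) and Gm14275 (3.69) lay under the intron control medians. Background there limits what the size of a log2 change can show. The largest falls included those of Serpinb1a, the chemokine gene Ccl24, Rnase4, Atp6v0d2 and the macrophage transcription factor gene Maf. Without the clone block 497 genes were called higher and 562 lower, and of these 489 and 546 were also called with it. Counts also fell by over 1.5 times with a high clone left out, to 388 and 363 without clone 69, 354 and 334 without clone 73 and 482 and 478 without clone 83. With genes of a mean level under 5 left out they grew to 1316 and 1517 of 11794 genes. In these bulk samples a lower signal per cell and fewer cells with the signal cannot be told apart.

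**Figure D1:**
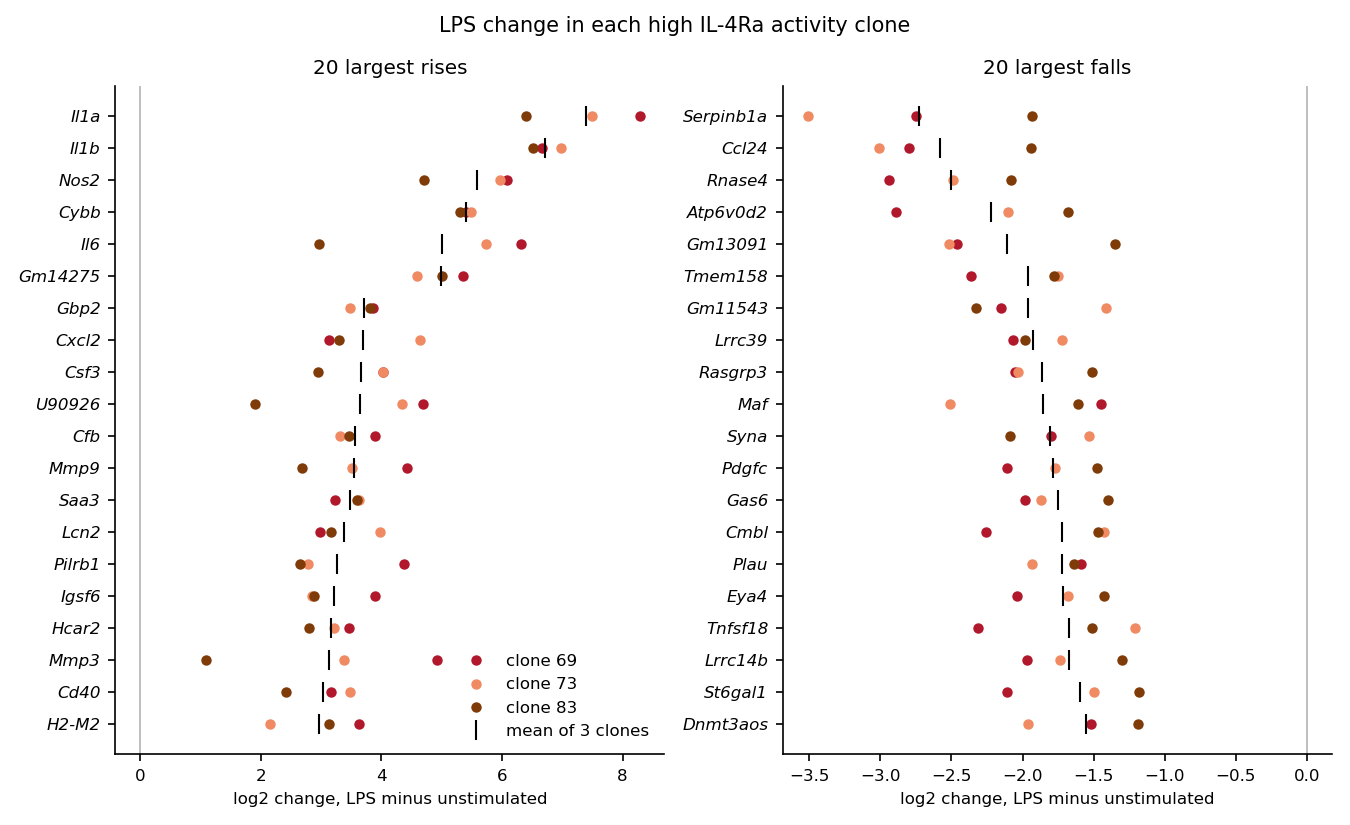
The log2 change (LPS minus unstimulated, x axis) of the 20 genes with the largest rise and the 20 with the largest fall is shown for each high clone as a point, with a bar at the mean of 3 clones. Il1a had the largest mean rise, 7.39, and Serpinb1a the largest mean fall, -2.73, and clone 83 lay far below the other two for Il6, U90926 and Mmp3.

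The stretches upstream of some genes that rose are shown because the 2 arms of LPS signalling act through short DNA motifs there. The genes shown were not drawn by a rule, so their windows do not stand for all risen genes. Ifit1 rose by 1.83 and Rsad2 by 1.15, less than the rise of 2 used for the shares below. The 250 bases before the RefSeq start are given 5′ to 3′ on the gene's own strand in assembly GRCm38.p6, with matches in capitals to an NF-kB motif (kB, GGANTTTCC), an interferon response motif (ISRE, TTTCNNTTT) and an AP-1 motif (TGANTCA), each searched on both strands. They lie at chr2:129371140-129371389 on the minus strand (Il1b), chr5:90903649-90903898 plus (Cxcl2), chr5:30012864-30013113 plus (Il6), chr3:142620413-142620662 plus (Gbp2), chr19:34640639-34640888 plus (Ifit1), chr12:26456453-26456702 minus (Rsad2), chr14:103046762-103047011 plus (Acod1) and chr5:92348890-92349139 minus (Cxcl10).
Il1b: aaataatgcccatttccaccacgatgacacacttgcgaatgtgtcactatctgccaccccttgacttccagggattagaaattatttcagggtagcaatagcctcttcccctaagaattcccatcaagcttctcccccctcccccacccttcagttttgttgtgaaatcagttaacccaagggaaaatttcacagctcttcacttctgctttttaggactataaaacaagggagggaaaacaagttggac
Cxcl2: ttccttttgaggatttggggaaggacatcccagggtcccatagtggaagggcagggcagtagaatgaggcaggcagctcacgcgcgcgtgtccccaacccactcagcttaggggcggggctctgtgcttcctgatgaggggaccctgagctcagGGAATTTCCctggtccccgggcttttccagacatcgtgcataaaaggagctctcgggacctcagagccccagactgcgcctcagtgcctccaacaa
Il6: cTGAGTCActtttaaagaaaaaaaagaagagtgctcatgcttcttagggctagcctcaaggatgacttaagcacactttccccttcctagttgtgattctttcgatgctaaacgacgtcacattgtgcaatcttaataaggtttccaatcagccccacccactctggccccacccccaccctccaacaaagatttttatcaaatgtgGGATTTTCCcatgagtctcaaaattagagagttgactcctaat
Gbp2: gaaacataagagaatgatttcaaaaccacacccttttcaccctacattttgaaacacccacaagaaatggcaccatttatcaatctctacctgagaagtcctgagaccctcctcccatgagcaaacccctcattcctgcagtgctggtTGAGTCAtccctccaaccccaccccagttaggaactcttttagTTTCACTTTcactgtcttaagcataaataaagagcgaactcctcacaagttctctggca
Ifit1: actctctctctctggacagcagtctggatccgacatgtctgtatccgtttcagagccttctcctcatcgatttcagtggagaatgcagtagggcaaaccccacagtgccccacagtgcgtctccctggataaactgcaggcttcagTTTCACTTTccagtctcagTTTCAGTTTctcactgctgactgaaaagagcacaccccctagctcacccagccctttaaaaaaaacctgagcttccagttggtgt
Rsad2: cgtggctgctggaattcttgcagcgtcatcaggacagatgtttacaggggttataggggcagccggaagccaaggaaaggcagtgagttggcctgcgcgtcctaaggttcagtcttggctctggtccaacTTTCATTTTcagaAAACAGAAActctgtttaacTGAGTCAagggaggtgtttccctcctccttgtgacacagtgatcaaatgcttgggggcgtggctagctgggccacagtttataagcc
Acod1: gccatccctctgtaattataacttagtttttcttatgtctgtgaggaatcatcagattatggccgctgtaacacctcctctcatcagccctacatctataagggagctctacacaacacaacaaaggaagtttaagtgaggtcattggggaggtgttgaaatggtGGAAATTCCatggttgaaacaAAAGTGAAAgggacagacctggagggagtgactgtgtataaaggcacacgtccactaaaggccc
Cxcl10: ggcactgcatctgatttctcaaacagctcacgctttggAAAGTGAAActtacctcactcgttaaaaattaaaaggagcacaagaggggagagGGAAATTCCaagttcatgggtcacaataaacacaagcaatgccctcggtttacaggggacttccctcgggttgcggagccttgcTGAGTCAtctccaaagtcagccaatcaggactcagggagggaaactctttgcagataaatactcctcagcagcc

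The windows of Cxcl2 and Il6 hold a kB match and no ISRE match, at 96 and 43 bases before the start, and an AP-1 match is held by the windows of Il6, Gbp2, Rsad2 and Cxcl10. The windows of Ifit1, Rsad2 and Gbp2 hold ISRE matches and no kB match. Those of Acod1 and Cxcl10 hold a kB and an ISRE match, and that of Il1b holds none of the 3. Over all 18536 tested genes with an entry, 1.32% of genes had a kB match, 10% an ISRE match and 7.45% an AP-1 match. Of the 53 genes that rose by at least 2, 39 had an entry, of which 17.9% had a kB, 41% an ISRE and 23.1% an AP-1 match. The 84 genes with an entry among the 121 that fell by at least 1 had shares of 1.19%, 16.7% and 10.7%. A match is a run of letters and does not show that a factor bound there.

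Interleukin-1 genes changed most. Il1a (chromosome 2, 129299610 to 129309972, minus strand), which codes for IL-1 alpha, read 3.83, 3.95 and 4.04 without LPS and 12.11, 11.45 and 10.43 with LPS in clones 69, 73 and 83. Il1b, the neighbouring gene for the secreted IL-1 beta (129364570 to 129371139), read 5.72, 5.19 and 4.96 without LPS and 12.38, 12.16 and 11.47 with it. Neither gene's LPS arrays came near its unstimulated arrays, and the changes were 7.39 ± 0.34 (SE, adjusted p = 2.21e-05) and 6.71 ± 0.12 (adjusted p = 2.49e-08). Il6, for the fever and acute-phase cytokine IL-6 (chromosome 5, 30013161 to 30019968), read 3.29, 2.88 and 3.40 without LPS and 9.61, 8.61 and 6.36 with LPS. All 3 clones rose, but clone 83 ended at a level more than 2 units below the others, and the change was 5.0 ± 0.53 (adjusted p = 0.000934). Tnf stood high without LPS, at 10.37, 10.29 and 10.40, and reached 12.10, 12.02 and 12.02, a rise of 1.69 ± 0.09 or 3.23-fold (adjusted p = 4.14e-05) with little spread between clones.

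In the cytokine list 11 of 28 members rose and 0 fell, with a median change of 0.36 against -0.01 over all genes tested. Csf3, the gene of granulocyte colony-stimulating factor, read 3.79, 4.40 and 4.56 without LPS and 7.82, 8.42 and 7.50 with it, a rise of 3.66 ± 0.27 (adjusted p = 0.000166). Il12b, for the subunit shared by IL-12 and IL-23, rose by 2.09 ± 0.28 (adjusted p = 0.00277) from levels of 3.60 to 3.85, near background. The anti-inflammatory cytokine gene Il10 changed by -0.46 ± 0.19 (adjusted p = 0.221) and did not pass the test. The gene of interferon-beta, Ifnb1, was near background on all 6 arrays, between 2.46 and 2.90, with a change of 0.25 ± 0.12 (adjusted p = 0.303).

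**Figure D2:**
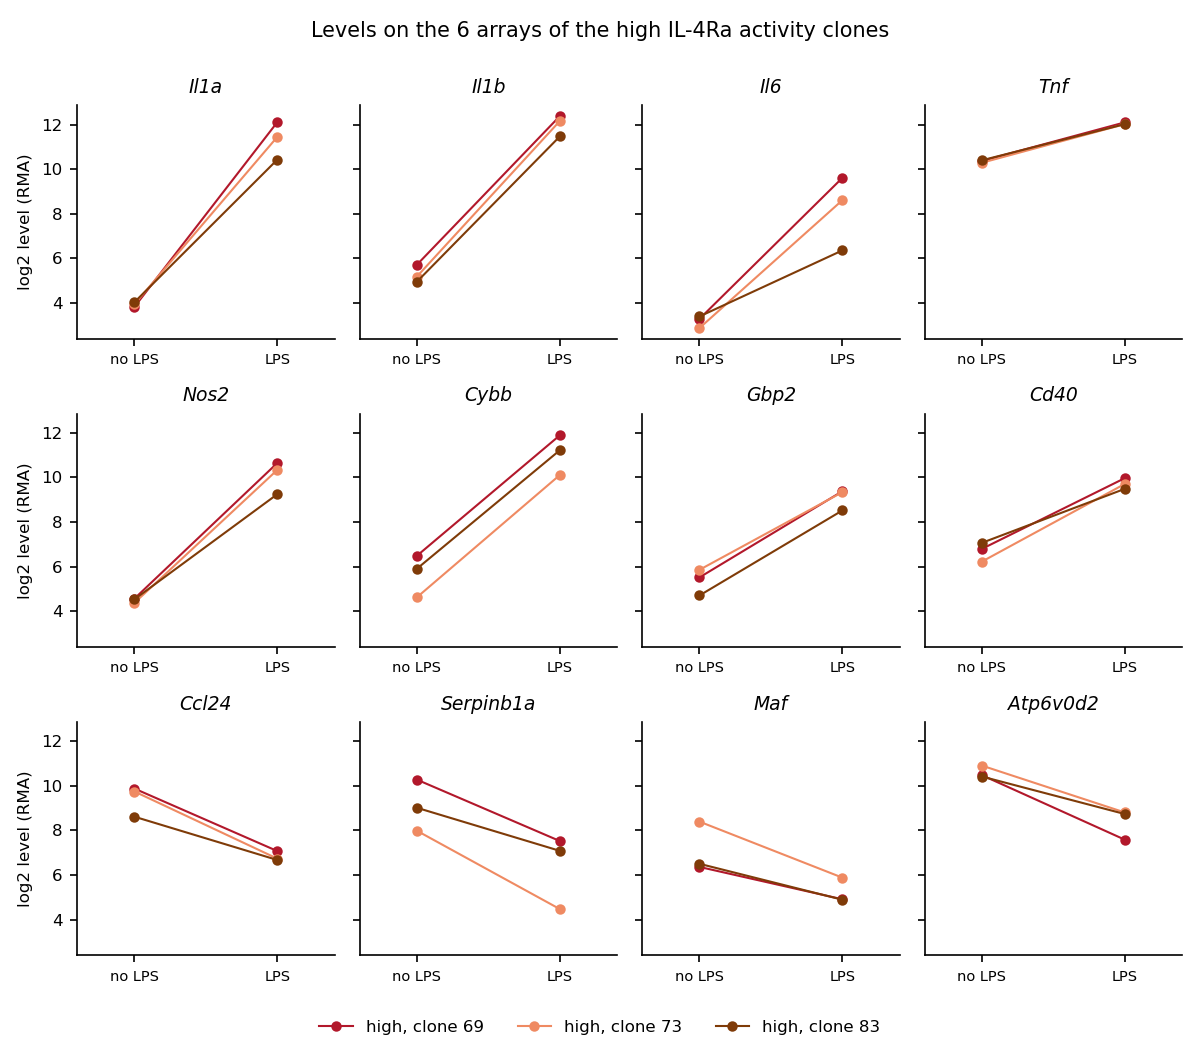
The log2 level of 12 genes (y axis) is shown without and with LPS, with a line for each of clones 69, 73 and 83. The lines of Il1a, Il1b, Il6, Nos2 and Cybb climb steeply, with Il6 of clone 83 at 6.36, and those of Ccl24, Serpinb1a, Maf and Atp6v0d2 fall in every clone.

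Of 25 chemokine genes, 8 rose and 2 fell, with a median of 0.37. Cxcl2, whose product attracts neutrophils, read 6.71, 4.81 and 5.81 without LPS and 9.84, 9.45 and 9.10 with it, a rise of 3.69 ± 0.26 (adjusted p = 0.000155). The unstimulated levels differed by nearly 2 units between clones, while the LPS levels lay within 1 unit. Cxcl10 and Cxcl11, interferon-induced attractants of T cells, rose by 2.25 ± 0.20 (adjusted p = 0.000342) and 2.26 ± 0.28 (adjusted p = 0.00202). Cxcl10 was already at 8.29, 9.45 and 9.15 without LPS. Ccl24, for an eosinophil attractant that IL-4 raises in macrophages, went the other way, from 9.87, 9.74 and 8.61 to 7.07, 6.73 and 6.67, and fell by 2.58 ± 0.20 on the log2 scale, or 5.99-fold (adjusted p = 0.000184). The platelet chemokine gene Ppbp fell by 0.89 ± 0.12 (adjusted p = 0.00259, and 0.482 without the clone block).

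The LPS receptor itself moved little. Tlr4 read 8.47, 8.73 and 8.29 without LPS and 7.69, 8.02 and 8.05 with it, and fell by 0.58 ± 0.12 (adjusted p = 0.0235). This call ended without clone 69 (adjusted p = 0.166), without clone 73 (0.164) and in a fit of the 6 high-clone arrays alone (0.0580). Its partners Cd14 and Ly96, which codes for MD-2, changed by -0.07 ± 0.10 (adjusted p = 0.772) and -0.22 ± 0.10 (adjusted p = 0.266). Of 26 genes of TLR signalling 7 rose and 3 fell. The receptor for bacterial lipoproteins, Tlr2, rose by 1.53 ± 0.16 (adjusted p = 0.000828), the receptor for double-stranded RNA, Tlr3, by 0.97 ± 0.11 (adjusted p = 0.00135) and the kinase gene Ikbke by 1.79 ± 0.17 (adjusted p = 0.000637).

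Among NF-kB subunits and feedback inhibitors 20 of 30 rose and 1 fell, with a median change of 0.63. Nfkbia, which codes for the inhibitor that holds NF-kB in the cytoplasm and is itself an NF-kB target, read 9.31, 9.80 and 9.66 without LPS and 10.55, 10.77 and 10.42 with it, a rise of 0.99 ± 0.11 (adjusted p = 0.0012). The 3 largest rises were those of Irak3, a kinase-like brake on TLR signalling (2.20 ± 0.12, adjusted p = 3.98e-05), the adaptor Traf1 (2.14 ± 0.23, adjusted p = 0.00108) and the nuclear NF-kB regulator Nfkbiz (1.92 ± 0.11, adjusted p = 6.03e-05). All 3 were raised in each clone. Zfp36, for a protein that destabilises cytokine mRNAs, was the member that fell, by 0.49 ± 0.09 (adjusted p = 0.0127), a call that ended without the clone block (0.119) and without any 1 of the high clones (0.0627 to 0.0974). Socs1, a brake on JAK signalling, changed by 0.31 ± 0.10 (adjusted p = 0.115).

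Effector genes of killing and inflammation rose in 22 of 42 cases and fell in 3, with a median of 0.73. Nos2, for inducible nitric oxide synthase (chromosome 11, 78920787 to 78960254), read 4.57, 4.38 and 4.54 without LPS and 10.65, 10.34 and 9.25 with it, a change of 5.58 ± 0.30 (adjusted p = 3.98e-05). Cybb, for the catalytic subunit of the phagocyte NADPH oxidase, differed by nearly 2 units between clones but rose alike in all, from 6.49, 4.63 and 5.91 to 11.89, 10.11 and 11.22. Its change of 5.40 ± 0.15 (adjusted p = 8.62e-07) was larger than the spread between clones in either condition. Acod1, for the enzyme that makes itaconate, read 9.32, 9.30 and 9.86 without LPS and 12.14, 12.15 and 12.10 with it, a rise of 2.64 ± 0.21 or 6.22-fold (adjusted p = 0.000234).

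Acute-phase and complement genes rose with these. Cfb, for complement factor B, rose by 3.56 ± 0.24 (adjusted p = 0.000125), the serum amyloid gene Saa3 by 3.48 ± 0.26 (adjusted p = 0.000166) and Lcn2, for an iron-withholding protein, by 3.37 ± 0.23 (adjusted p = 0.000117). The matrix protease gene Mmp9 rose by 3.54 ± 0.28 (adjusted p = 0.000212). Ptgs2, for the inducible cyclooxygenase, rose by 1.69 ± 0.21 (adjusted p = 0.00207), whereas Ptgs1, for the constitutive form, fell by 0.57 ± 0.10 (adjusted p = 0.00865). Alox5, for the first enzyme of leukotriene synthesis, fell by 0.77 ± 0.10 (adjusted p = 0.00206) and the urokinase gene Plau by 1.72 ± 0.14 (adjusted p = 0.000247). The calls of Ptgs1 and Alox5 ended without the clone block, at adjusted p of 0.203 and 0.533, and that of Ptgs1 also without clone 69 (0.0767) or clone 73 (0.0667).

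Interferon-stimulated genes formed the list with the highest share of calls, since 38 of 48 rose and 0 fell, with a median change of 0.93. Gbp2, for an interferon-induced GTPase that attacks vacuoles of microbes, read 5.52, 5.86 and 4.71 without LPS and 9.38, 9.34 and 8.52 with it, a rise of 3.72 ± 0.15 (adjusted p = 1.94e-05). Zbp1, a sensor of unusual nucleic acids that can trigger cell death, rose by 2.90 ± 0.25 (adjusted p = 0.00031) and Gbp3 by 2.71 ± 0.14 (adjusted p = 3.98e-05). Guanylate-binding protein genes are near-identical copies in part, so single values of Gbp genes are uncertain. The annotation did not mark the probes of Gbp2, Gbp3 or Gbp11 as able to bind other transcripts. Per clone, the median change of the list was 0.85 in clone 69, 0.77 in clone 73 and 1.10 in clone 83. Ifi44l showed how far clones could differ before LPS, at 9.12, 8.83 and 5.87 without and 10.39, 10.74 and 9.18 with it, so that clone 83 had the largest rise from the lowest start. Its change was 2.16 ± 0.31 (adjusted p = 0.00408, and 0.108 without the clone block).

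Antigen presentation and co-stimulation genes rose in 15 of 27 cases and fell in 0, with a median of 0.46. Cd40, the receptor through which T cells license macrophages, read 6.80, 6.23 and 7.07 without LPS and 9.97, 9.71 and 9.49 with it, a rise of 3.02 ± 0.17 (adjusted p = 5.27e-05). Icosl, a ligand of the T cell co-stimulator ICOS, rose by 1.84 ± 0.21 (adjusted p = 0.00129). H2-M2, for a non-classical class I molecule, rose by 2.97 ± 0.24 (adjusted p = 0.000251).

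**Figure D3:**
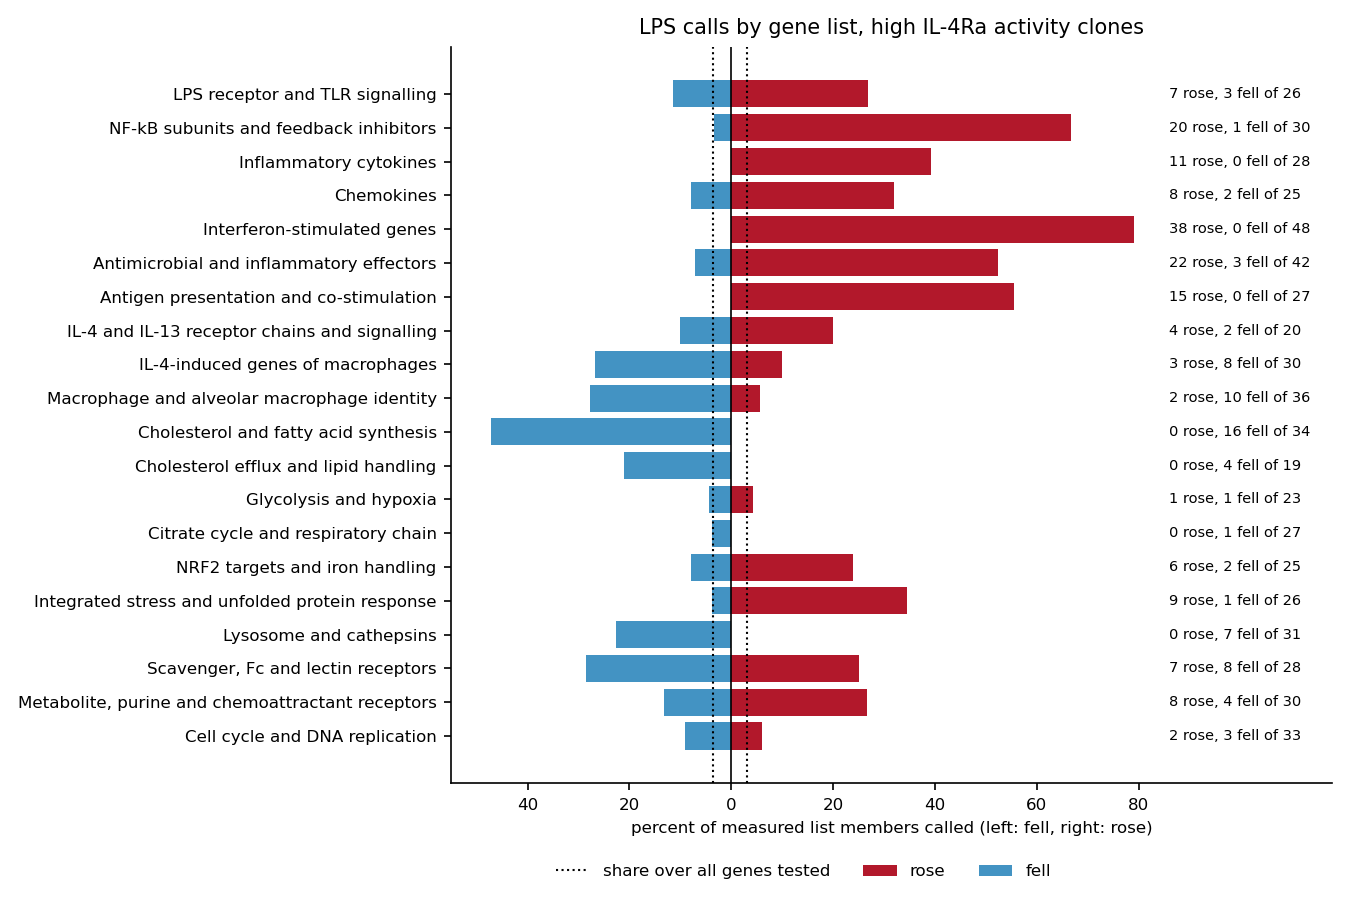
For each gene list the share of measured members that rose (red, right) or fell (blue, left) is shown in percent, with dotted lines at the shares over all genes tested, 3.04% and 3.62%. The interferon-stimulated list has the highest share of rises (38 of 48) and the cholesterol and fatty acid synthesis list the highest share of falls (16 of 34).

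The receptor that names the clones was itself raised by LPS. Il4ra (chromosome 7, 125552271 to 125579474, plus strand) read 7.70, 7.37 and 7.20 without LPS and 8.50, 8.29 and 7.86 with it. Each clone rose, by 0.79 ± 0.10 in the mean (adjusted p = 0.00188), and the LPS arrays lay above all unstimulated arrays. Without the clone block, where the spread of levels between clones enters the error, the adjusted p was 0.196. Without LPS Il4ra read 7.49, 8.24 and 7.11 in low clones 7, 29 and 75, with a mean of 7.61 against 7.42 in high clones, and the groups overlapped. In the low clones Il4ra rose by 0.73 ± 0.10, and the difference of the responses was 0.06 with a 95% interval of -0.25 to 0.37. Il2rg, for the gamma chain shared by several cytokine receptors, IL-4Ra among them, read 7.33, 6.16 and 9.95 without LPS and 8.01, 7.37 and 10.31 with it, with clone 83 above the others in both conditions. Its rise of 0.75 ± 0.18 (adjusted p = 0.0366) was no longer called without the clone block (0.782), in the 6 high-clone arrays alone (0.0543), or without clone 29 (0.0519), clone 69 (0.140) or clone 73 (0.234).

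The other IL-13 receptor chains changed by 0.22 ± 0.09 (Il13ra1, adjusted p = 0.224) and 0.05 ± 0.11 (Il13ra2, adjusted p = 0.853), and Il13ra2 was near background at 2.76 to 3.07. Of the kinases, Jak2 rose by 1.41 ± 0.14 (adjusted p = 0.000758), while Jak1 at 0.03 ± 0.11 (adjusted p = 0.926) and Jak3 at -0.12 ± 0.13 (adjusted p = 0.715) were not called. Stat6, the transcription factor of the IL-4 signal, read 9.95, 9.82 and 9.72 without LPS and 9.68, 9.40 and 9.24 with it, and fell by 0.39 ± 0.09 (adjusted p = 0.0377). That call was lost without the clone block (0.112), in the 6 high-clone arrays alone (0.0702) and with any 1 of clones 7, 29, 69, 73 and 83 left out (0.0592 to 0.211). In all, 4 of 20 genes of the receptor and its signalling rose and 2 fell, with a median change of 0.02.

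**Figure D4:**
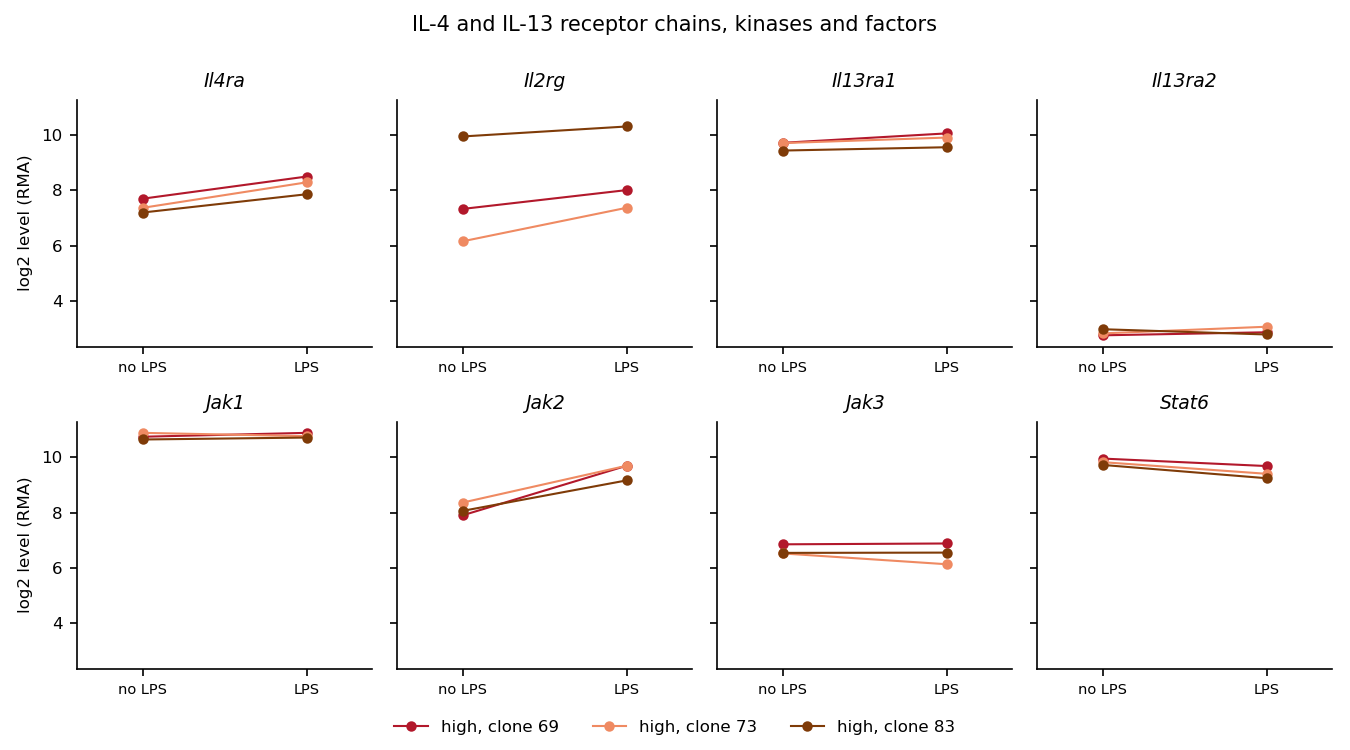
The log2 level of 8 genes of the IL-4 and IL-13 receptors and their signalling (y axis) is shown without and with LPS, with a line for each high clone. Il4ra and Jak2 climb in each clone, Stat6 falls slightly, and Il2rg of clone 83 lies at 9.95 and 10.31, above the other clones.

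Genes that IL-4 raises in macrophages fell in 8 of 30 cases and rose in 3, with a median of -0.04. Next to Ccl24, the largest falls were those of Atp6v0d2, for a subunit of the proton pump of lysosomes, and of Pparg, for the lipid-sensing nuclear receptor. Atp6v0d2 read 10.47, 10.90 and 10.41 without LPS and 7.58, 8.80 and 8.73 with it, a fall of 2.22 ± 0.19 on the log2 scale (adjusted p = 0.000357). Pparg fell by 1.29 ± 0.23 (adjusted p = 0.0118), from 5.62, 6.74 and 6.50 to between 4.64 and 5.35. The arginine transporter gene Slc7a2 rose by 1.80 ± 0.28 (adjusted p = 0.00578), and Ch25h, for cholesterol 25-hydroxylase, which interferon also raises, by 1.27 ± 0.24 (adjusted p = 0.0146, 0.169 without the clone block and 0.0700 without clone 69). The classical IL-4 markers Arg1, Chil3 and Retnla lay between 2.25 and 4.24 on all 6 arrays, near background, and changed by 0.08, 0.03 and -0.02.

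Macrophage identity genes fell in 10 of 36 cases and rose in 2, with a median of -0.11. Maf, for a transcription factor that maintains mature macrophages, read 6.36, 8.39 and 6.50 without LPS and 4.91, 5.88 and 4.89 with it, and fell by 1.86 ± 0.19 on the log2 scale (adjusted p = 0.000759). Adgre1, for a surface protein used to mark mouse macrophages, went the other way and rose by 1.13 ± 0.11 (adjusted p = 0.000759). Epas1, for the hypoxia-inducible factor HIF-2 alpha, fell by 1.29 ± 0.10 (adjusted p = 0.000166).

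Receptors for particles and dying cells changed in both directions, with 7 of 28 up and 8 down. Gas6, a bridge between dying cells and the receptor MERTK, read 11.11, 11.34 and 10.82 without LPS and 9.13, 9.47 and 9.42 with it, a fall of 1.75 ± 0.13 on the log2 scale (adjusted p = 0.000184). Mertk itself fell by 0.82 ± 0.12 (adjusted p = 0.00454, but 0.0838 without the clone block and 0.0520 without clone 73). Siglec1, the sialic acid receptor that interferon raises, rose by 1.82 ± 0.17 (adjusted p = 0.00054). Of 30 metabolite and chemoattractant receptors 8 rose and 4 fell. Hcar2, the receptor for hydroxybutyrate and niacin, rose by 3.16 ± 0.21 (adjusted p = 0.000126), Fpr2, for formyl peptides and amyloids, by 2.88 ± 0.39 (adjusted p = 0.00291) and Ccrl2, which holds chemerin at the cell surface, by 2.85 ± 0.15 (adjusted p = 3.98e-05). Cxcr4, the receptor for CXCL12, fell by 1.01 ± 0.11 (adjusted p = 0.00121).

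Sterol synthesis was the group with the most frequent falls. Of 34 genes of cholesterol and fatty acid synthesis 16 fell and 0 rose, with a median of -0.42. Hmgcs1, for the synthase at the start of the mevalonate pathway, read 8.97, 8.40 and 8.64 without LPS and 7.89, 7.51 and 7.86 with it, and fell by 0.92 ± 0.10 (adjusted p = 0.00103). The demethylase gene Cyp51 fell by 0.83 ± 0.12 (adjusted p = 0.00383). Of 19 genes of cholesterol efflux and lipid handling 4 fell and 0 rose. Acat1, for a mitochondrial thiolase, fell by 0.75 ± 0.11 (adjusted p = 0.00419). Mylip fell by 0.49 ± 0.11 (adjusted p = 0.0272) and Plin2 by 0.47 ± 0.09 (adjusted p = 0.0169). Both calls ended without the clone block (0.0851 and 0.0508), without clone 69 (0.157 and 0.0824) and without clone 73 (0.187 and 0.103). Of 31 lysosomal genes 7 fell and 0 rose, with a median of -0.24, and after Atp6v0d2 the mannosidase gene Man2b1 fell most, by 0.63 ± 0.09 (adjusted p = 0.00456).

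Central carbon metabolism showed few calls. Among 23 glycolysis and hypoxia genes 1 rose and 1 fell, close to the background shares, and the risen member was Hk2, for hexokinase 2, at 0.54 ± 0.10 (adjusted p = 0.0120, and 0.0559 to 0.101 when any 1 high clone was left out). Among 27 genes of the citrate cycle and respiratory chain 1 fell, Idh2, for the mitochondrial isocitrate dehydrogenase, by 0.44 ± 0.11 (adjusted p = 0.0456), a call that ended with arrays centred on their medians (0.0576), in the 6 high-clone arrays alone (0.0512) and without any 1 of clones 7, 69, 73 and 83 (0.0766 to 0.234). Of 25 antioxidant and iron genes 6 rose and 2 fell. Slc7a11, for the cystine transporter that feeds glutathione synthesis, rose by 2.00 ± 0.16 (adjusted p = 0.000262), mitochondrial superoxide dismutase, Sod2, by 1.42 ± 0.10 (adjusted p = 0.00016) and the iron transporter Slc11a2 by 1.05 ± 0.11 (adjusted p = 0.00108). Of 26 stress response genes 9 rose and 1 fell, led by Trib3 (0.99 ± 0.13, adjusted p = 0.0025) and Ddit3 (0.85 ± 0.12, adjusted p = 0.00371), which are targets of the translation stress factor ATF4.

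Cell cycle genes were called in 5 of 33 cases, 2 up and 3 down, with a median of -0.01. Ccnd1, for the G1 cyclin D1, read 10.21, 10.57 and 10.55 without LPS and 8.84, 9.47 and 9.45 with it, and fell by 1.19 ± 0.16 (adjusted p = 0.0033). Ccne2, for cyclin E2, rose by 0.67 ± 0.09 (adjusted p = 0.00278). Of the markers of other cells, 0 of 11, 0 of 12 and 0 of 12 were called for monocytes and dendritic cells, lymphocytes, and fibroblasts and epithelium. Among them Acta2, for smooth muscle actin, read 4.94, 5.46 and 5.24 without LPS and 6.18, 5.95 and 5.98 with it, a change of 0.82 ± 0.24 (adjusted p = 0.0919). It was called without the clone block (0.0490), in the 6 high-clone arrays alone (0.0328), with a trend prior (0.0486), with dim genes left out (0.0441) and without clone 7 (0.0183). The monocyte marker Ly6c2 changed by 2.17, 0.18 and -0.17 in clones 69, 73 and 83 (mean 0.73 ± 0.44, adjusted p = 0.440), with clone 69 apart from the others. For neutrophils and mast cells 2 of 14 rose, Ly6g by 0.50 ± 0.11 (adjusted p = 0.0275) and Ngp by 0.48 ± 0.10 (adjusted p = 0.0199), at levels from 3.42 to 5.17. The calls ended without the clone block (0.137 and 0.195) and in part when high clones were left out, and their part in other results was not tested.

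Other genes with the largest falls had varied roles. Serpinb1a, for an inhibitor of neutrophil proteases, read 10.27, 7.98 and 9.01 without LPS and 7.52, 4.47 and 7.08 with it. Its levels differed by more than 2 units between clones in each condition, and it fell in all 3, by 2.73 ± 0.27 on the log2 scale (adjusted p = 0.000698). Rnase4, for a secreted ribonuclease, fell by 2.50 ± 0.20 (adjusted p = 0.00022), Rasgrp3, for an activator of Ras, by 1.86 ± 0.14 (adjusted p = 0.000182) and Pdgfc, for a platelet-derived growth factor, by 1.79 ± 0.14 (adjusted p = 0.000219).

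Among called genes the clones agreed in direction, for all 831 that rose and all 989 that fell, and differed in size. A paired call favours such agreement, so these counts do not test it. On the first principal component of the 6 arrays, which held 43.7% of the variance, LPS arrays lay apart from unstimulated arrays, and the second, at 21.3%, set clone 73 apart from the others in both conditions. Over all genes tested 41.2% changed with the same sign in 3 clones. Among the 831 risen genes, the median rise was 0.72 in clone 69, 0.72 in clone 73 and 0.61 in clone 83, and clone 83 had the smallest rise for 400 of them. It also had the smallest fall for 484 of the 989 fallen genes. Over all 27296 genes tested, the smallest change was in clone 83 for 9512, in clone 69 for 9482 and in clone 73 for 8302. A change of at least 1 was seen upward for 296 genes in clone 69, 325 in clone 73 and 229 in clone 83, and downward for 183, 216 and 138.

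Some genes of secreted proteins differed widely between the clones. The matrix protease gene Mmp3 rose by 4.92, 3.38 and 1.09 in clones 69, 73 and 83 (mean 3.13 ± 0.60, adjusted p = 0.0155, and 0.0720 without the clone block, 0.0842 without clone 69 and 0.116 without clone 73). Il1f6, for IL-36 alpha, rose by 3.80, 1.80 and 2.56, a call that ended without clone 69 (adjusted p = 0.101) or clone 83 (0.0600). Serpinb2, for an inhibitor of urokinase, changed by 3.67, 2.14 and 0.42 and was not called (adjusted p = 0.0628), but was without clone 83, at 2.90 (adjusted p = 0.0197). At the other end, Ifit2, an interferon-induced inhibitor of viral translation, rose by 1.11, 1.07 and 1.11, and the NAD kinase gene Nadk by 0.99, 1.01 and 1.00.

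Most of this response was seen in the low clones too, where 1302 genes (4.77%) rose and 1654 (6.06%) fell. Of the 831 genes that rose in high clones, 679 were also called as rising in low clones and 1 as falling. For the 220 genes with a rise of at least 1, 214 were called in low clones, and the median change was 1.46 in high clones and 2.03 in low clones. The test of the difference between the responses called 15 genes (0.055%), 14 with a smaller or more negative response in the high clones (0.0513%) and 1 with a larger response (0.00366%).

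Interferon-stimulated genes stood out by count in this comparison, without a test of the list. All 48 measured members had a smaller change in high than in low clones, against 13356 of the 27296 genes tested. Most of those genes were not called, and the same share among risen genes was not counted. The 831 risen genes had medians of 0.69 in high and 0.79 in low clones, and those that rose by at least 1 had 1.46 and 2.03. How far the list stood out beyond risen genes in general is thus not shown. The list's median was 0.93 in high and 1.53 in low clones. The 3 high clones had medians of 0.77 to 1.10 and the 3 low clones of 1.45 to 1.70, with no overlap. The mean level of the list without LPS overlapped, at 7.53 to 8.28 in high and 7.79 to 8.16 in low clones. With LPS it did not, at 8.84 to 9.36 in high and 9.70 to 9.94 in low clones. Of the 48, 3 were called in the test of the difference: Ifit1, Rsad2 and Ifih1. Several other lists with many rises leaned the same way. A smaller change in high clones was seen for 23 of 30 NF-kB and feedback genes and 22 of 27 antigen presentation genes. It was also seen for 19 of 26 stress response, 18 of 25 chemokine, 28 of 42 effector and 18 of 28 cytokine genes. Antioxidant and iron genes (9 of 25) and metabolite and chemoattractant receptors (13 of 30) did not lean this way. The lean was not confined to lists with many rises. Among genes that IL-4 raises in macrophages, 22 of 30 had a smaller or more negative change in high clones. Changes were higher in high clones for 23 of 34 cholesterol and fatty acid synthesis genes, with medians of -0.42 in high and -0.52 in low clones. The same held for 22 of 27 citrate cycle and respiratory chain genes, at -0.12 and -0.31. Markers of fibroblasts and epithelium also had a smaller change in high clones in 11 of 12 cases, with medians of -0.06 in high and 0.12 in low clones, 2 risen in low clones and 0 called in the test of the difference. Among them Dcn, for the matrix protein decorin, changed by 0.71, 0.21 and -0.05 in clones 69, 73 and 83 and by 2.61 in the mean of the low clones, a difference of -2.32 ± 0.71 that was not called (adjusted p = 0.550). The part of these markers in the result was not tested.

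The 14 genes with smaller responses were of several shapes. In 11 of them every high clone lay below every low clone with LPS, an order that held for 7.70% of all genes tested. In 5 of them every high clone lay above every low clone without LPS, against 7.97% of all genes. The genes were chosen by this difference, so the counts describe them and test nothing.

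Acod1 differed before LPS. Without LPS it read 9.32, 9.30 and 9.86 in high clones and 7.30, 5.93 and 5.86 in low clones, and with LPS 12.14, 12.15 and 12.10 against 12.08, 11.71 and 11.73. The LPS levels nearly met, and the response was smaller in high clones by 2.84 ± 0.30 on the log2 scale (difference -2.84, adjusted p = 0.0242). Rsad2, for the antiviral enzyme viperin, was similar, at 8.98, 9.55 and 8.92 in high and 8.11, 7.89 and 7.62 in low clones without LPS, and at 10.28, 10.62 and 10.00 against 10.64, 10.41 and 10.49 with it. Its difference was -1.49 ± 0.15 (adjusted p = 0.0242). Cxcl10 read 8.29 to 9.45 in high and 7.12 to 7.50 in low clones without LPS, but its difference of -2.02 ± 0.28 missed the threshold (adjusted p = 0.0753). Differences in the other direction missed it too. Alox5 fell by 0.77 in high and 1.76 in low clones, a difference of 0.99 ± 0.14 (adjusted p = 0.0771). Csf3 rose by 3.66 in high and 1.81 in low clones, a difference of 1.85 ± 0.39 (adjusted p = 0.311).

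For other genes the larger gap between high and low clones was on the LPS arrays. Trim30c, of a family of near-identical tripartite motif genes, read 3.61, 3.42 and 2.99 in high and 3.19, 3.12 and 3.32 in low clones without LPS, and 3.98, 3.93 and 3.58 against 5.64, 5.64 and 5.72 with LPS. In the high clones it stayed under the intron control medians, and the difference was -1.97 ± 0.13 (adjusted p = 0.00322). The transcript AW112010 reached 4.65, 3.63 and 3.78 in high clones and 7.02, 7.54 and 6.55 in low clones, with a difference of -2.64 ± 0.20 (adjusted p = 0.00452). Its high-clone levels of 3.12 to 3.56 without LPS, and those of clones 73 and 83 with LPS, also lay under the intron control medians. The interferon-inducible GTPase genes Gm12250 and Gbp11 differed by -2.12 ± 0.24 and -2.14 ± 0.24 (adjusted p = 0.0345 for each). Gm12250 changed by 0.04 ± 0.17 in high clones (adjusted p = 0.943) against 2.15 in low clones. On the high-clone arrays Gm12250 read 3.49 to 3.85 and Gbp11 2.98 to 4.29. Those levels lay under the intron control medians, where background limits what the size of a change can show. Without LPS Gbp11 lay at 2.98 to 3.15 in high and 2.70 to 2.97 in low clones. Cxcl11 read 5.26, 6.32 and 5.90 in high and 4.62, 5.27 and 5.19 in low clones without LPS. With LPS it reached 7.51, 9.54 and 7.22 in high clones and 10.16, 10.40 and 10.73 in low clones, with a difference of -3.14 ± 0.40 (adjusted p = 0.0498).

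Ifit1, whose product binds foreign RNA, differed on both sides. It read 9.19, 9.61 and 8.77 in high and 8.42, 8.14 and 8.19 in low clones without LPS, and 11.08, 11.26 and 10.73 against 11.69, 11.66 and 11.66 with it, a difference of -1.59 ± 0.15 (adjusted p = 0.0127). Ifih1, for the RNA sensor MDA5, differed by -1.26 ± 0.16 (adjusted p = 0.0481), and Ifit1bl1 and Ifit1bl2, near-identical copies of the Ifit family, by -2.20 ± 0.26 (adjusted p = 0.0418) and -1.53 ± 0.20 (adjusted p = 0.0498). The gene with a larger response in high clones, 4930438A08Rik, rose by 1.91 ± 0.12 (adjusted p = 6.62e-05) against 0.52 in low clones, a difference of 1.39 ± 0.16 (adjusted p = 0.0382). In promoter windows, 7 of the 10 genes with an entry among the 14 held an ISRE match, which is 70% against 10% of all tested genes, and 56.8% of the 37 interferon-stimulated list members with an entry did.

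These difference calls rested on all 6 clones. Of the 15, 2 (Trim30c and AW112010) were called with each clone left out in turn, and for the others the highest adjusted p lay between 0.0732 and 0.322, reached by Cxcl11 without clone 75. Without the clone block 3 were called, Trim30c, LOC630751 and Gm12250, each at an adjusted p of 0.00573. Direction did not change for any of the 15 in these fits. The Cxcl11 call also ended with a robust prior (0.0505), with dim genes left out (0.0533), with arrays centred on their medians (0.0553) and after quantile normalization (0.0527). Median centring also ended the calls of Ifih1 (0.0623), Ifit1bl2 (0.0623) and Apol7b (0.0508), quantile normalization those of Ifih1 (0.0614), Apol7b (0.0584), Gbp11 (0.0527) and Gm12250 (0.0634), and the robust prior that of Ifit1bl2 (0.0505).

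**Figure D5:**
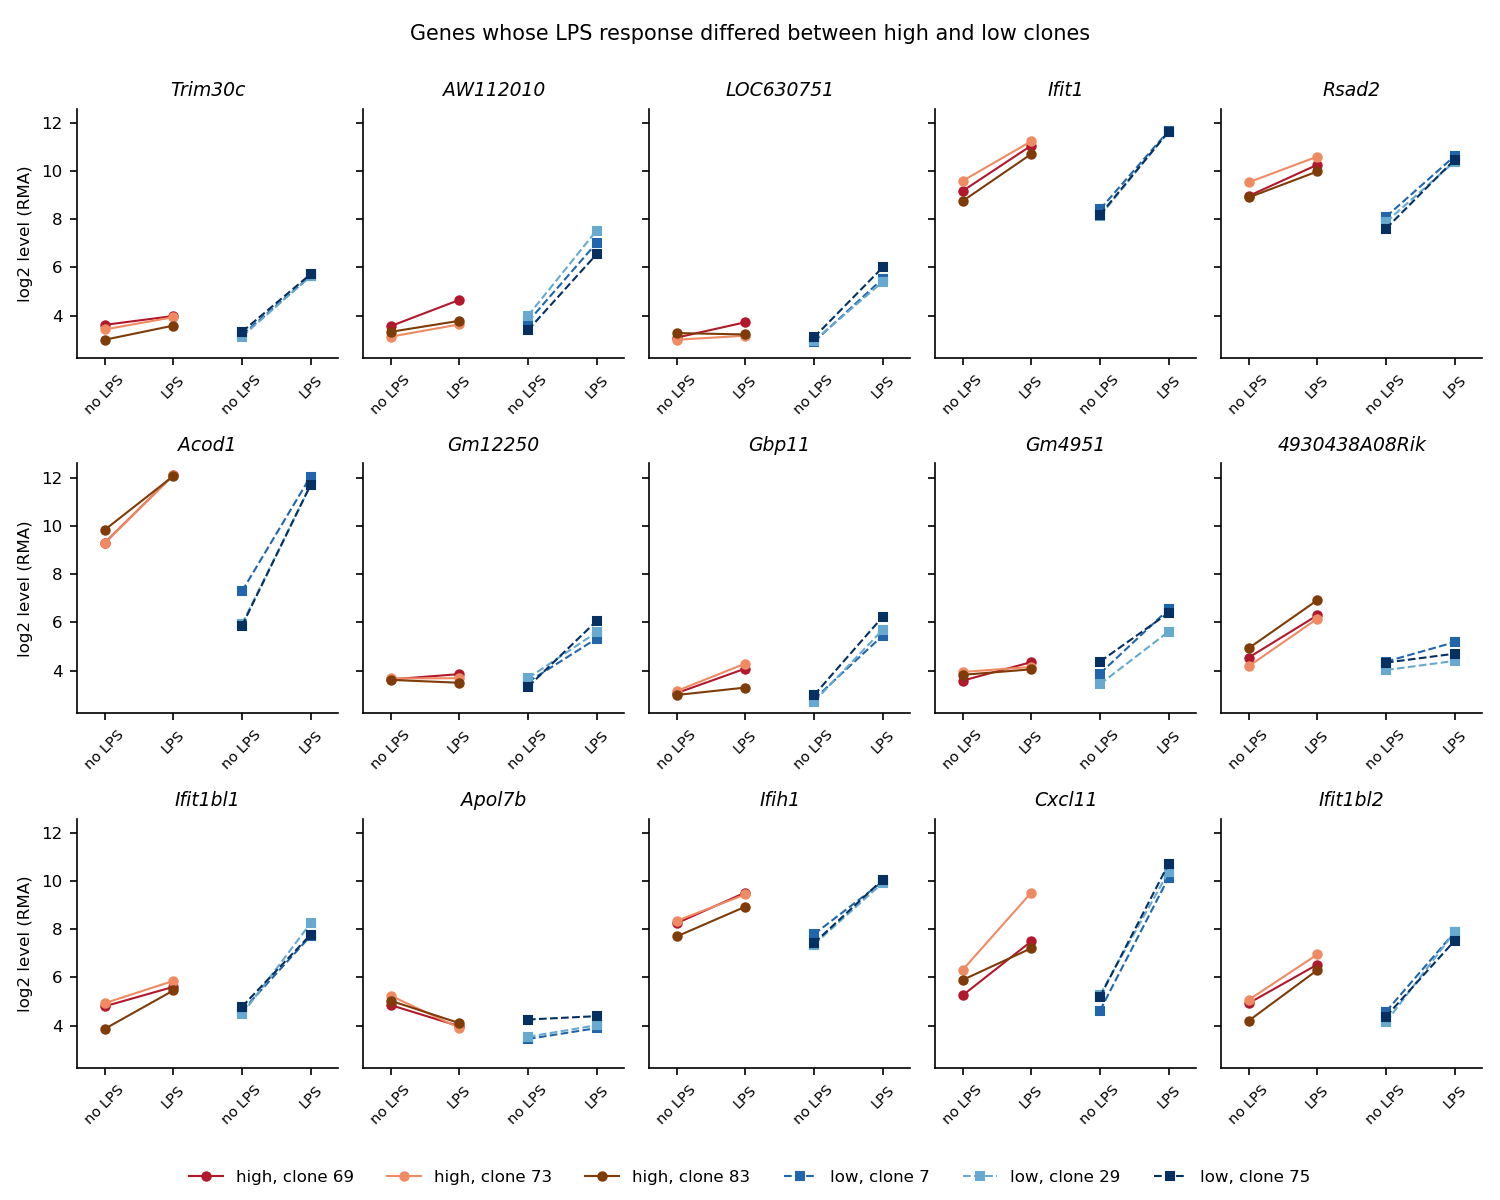
The log2 level (y axis) of the 15 genes whose LPS response differed is shown without and with LPS, with solid lines for high clones 69, 73 and 83 and dashed lines for low clones 7, 29 and 75. Acod1 of the high clones starts at 9.30 to 9.86, above the low clones, and ends beside them, while Trim30c, AW112010, LOC630751, Gm12250 and Gm4951 stay low in the high clones and climb in the low clones.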

How the data were processed

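RNA of 12 cultures (6 clones of the MH-S line, each without and with LPS) was hybridised to Mouse Gene 2.1 ST arrays. The authors deposited log2 values that Affymetrix Expression Console had made by RMA (background correction, quantile normalization and median polish), per the file headers and the submitters' processing notes. The sources used here give no version of it. Quantile normalization gives all arrays a like distribution, so changes are relative to the bulk of genes. The deposited workbook also holds mean intensity values per condition, a fold score and p-values of an unpaired t-test over all clones, made by the authors per the file headers and not used here. Annotation was NetAffx build 34 on mm10, and coordinates are as it gives them.

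Of 41345 features 29294 were of the main category with a symbol. Gene identifiers of 25154 matched RefSeq's GRCm38.p6 table, and 1885 symbols were updated through it. For the 1370 genes with several features the one with the highest mean was kept, which left 27296 genes, 1971 of them with probes marked as able to bind other transcripts. No unused columns of values per sample were found.

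The fit was made with limma 3.58.1 in R 4.3.3 over all 12 arrays, with a term for each clone and an LPS term for high and for low clones. Arrays of the same clone share a culture line by label, and their deviations from group means correlated at 0.402 (clone 69), 0.408 (clone 73) and 0.415 (clone 83), and at 0.226, 0.195 and 0.100 for clones 7, 29 and 75. Tests were two-sided, adjusted by Benjamini-Hochberg over all genes and called under 0.05. Errors after ± are standard errors of the fit unless given as SD. The number of arrays limits the precision, and the labels give no batch or scan date.

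Of 24 lists with 649 symbols, 12 symbols were not matched and were not analysed here. The members and lists were chosen with earlier results of these data known. Genes are named by a rule: the 20 largest rises and falls, up to 3 rises and falls of each list, a fixed set of receptor, cytokine and marker genes, the genes called in the difference of responses with the 10 largest differences, and the 10 most and 5 least variable between clones. Markers of cell types were added from their lists. A few genes that the rule names are not reported here. Alternatives were the fit without the clone block, the 6 arrays of the high clones alone, trend and robust priors and the mean of all features. Others were filters on dim and cross-hybridizing genes, median centring, a further quantile normalization, each clone left out and the methods' t-test on untransformed values. That t-test was unpaired and was run on the 6 high-clone arrays alone. Promoter windows came from RefSeq's table.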

Additional observations from a re-analysis of the deposited data

Results flagged for a closer look

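The LPS response differed between high and low clones for 15 genes by a test of the difference itself (limma with the clone as a block, adjusted p under 0.05). As high minus low on the log2 scale, the differences were -1.97 for Trim30c, -2.64 for AW112010, -2.42 for LOC630751, -1.59 for Ifit1, -1.49 for Rsad2, -2.84 for Acod1, -2.12 for Gm12250, -2.14 for Gbp11 and -1.90 for Gm4951. They were -2.20 for Ifit1bl1, -1.41 for Apol7b, -1.26 for Ifih1, -3.14 for Cxcl11, -1.53 for Ifit1bl2 and 1.39 for 4930438A08Rik.

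Apol7b, of the apolipoprotein L family, was the member that fell in high clones, by 1.05 ± 0.12 (adjusted p = 0.00139), against a change of 0.36 in low clones (adjusted p = 0.106). LOC630751 and Apol7b have probes marked as able to bind other transcripts. LOC630751 read 3.16 to 3.72 with LPS in high clones and 5.40 to 6.00 in low clones, and Gm4951 4.05 to 4.35 against 5.62 to 6.55. Both stayed under the intron control medians on the high-clone arrays, where background limits what the size of a change can show.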

How the results depend on the processing

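Counts of called genes depended on the error term more than the directions did. Of 151 named genes, 117 kept their call and direction without the replicate block and 143 in the 6 arrays of the high clones alone, and none reversed in either. The counts of higher and lower calls were 831 and 989 with the clone block and 497 and 562 without the replicate block. They were 1316 and 1517 with dim genes left out, and 220 and 121 with a log2 change of at least 1 required beside the adjusted p. The methods' t-test, run here on the 6 high-clone arrays alone, gave 4 and 0 on adjusted p and 1653 and 1827 on unadjusted p. The authors' own t-test was over all clones. With 1 clone left out of the fit with the clone block, the calls ranged from 354 to 935 higher and from 334 to 1171 lower. Calls of a larger and of a smaller response in high clones were 1 and 14 in the fit as reported, 0 and 3 without the replicate block, 2 and 36 with a trend prior, 2 and 7 with dim genes left out and 1 and 9 after a further quantile normalization. With 1 clone left out they ranged from 0 to 1 and from 3 to 5. Changes that reversed were all of genes not called. With 1 clone left out these ranged from -0.26 to 0.33 (Chil3), -0.05 to 0.11 (Gm12250), -0.04 to 0.17 (Il13ra2), -0.02 to 0.10 (Jak1), -0.19 to 0.02 (Jak3) and -0.09 to 0.06 (Retnla), and Retnla read 0.00 with arrays centred on their medians. The fit of the 6 arrays alone gave 700 and 855 calls. The filter tests fewer genes by construction, and the cause of the other shifts was not tested. Many unstimulated levels lay under the intron control medians of 4.56 to 4.77, where signal over background limits what a log2 change can show.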
